A study of Homo sapiens with 105 samples.

Results

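The genes described here are 40 genes of hypoxia and glycolysis, picked by symbol from the 26330 genes in each deposited table and all found there. They comprise 2 glucose transporters, 11 genes of upper glycolysis, 6 of lower glycolysis, 5 of pyruvate and lactate handling, 12 other targets of the hypoxia-inducible factors (HIF), and 4 genes for HIF subunits and the hydroxylases that control them. The RNA came from a human granulosa cell line, HGrC1, transduced either with empty vector (EV) or with FOXL2, as the wild type (WT) or as C134W, the missense change found in most adult granulosa cell tumors. It also came from KGN, a line from a human granulosa cell tumor that carries the C134W change in its own FOXL2 gene. The 3 HGrC1 lines and KGN were each sequenced without TGF-beta and with it (TGF in what follows). All groups were grown in Ham medium with 10% FCS per the labels, and the labels name no oxygen level and no hypoxia treatment. The sources used here give neither dose nor duration of TGF. The WT and C134W lines carry the transduced FOXL2 in addition to their own gene, and EV cells carry only their own.

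Cells take up glucose through the SLC2A transporters and split it to pyruvate in the steps of glycolysis. Pyruvate then enters the mitochondria or is reduced to lactate, which leaves the cell through the SLC16A transporters. HIF is a pair of an oxygen-labile alpha subunit, encoded by HIF1A or EPAS1, and a stable partner. When oxygen is present, the EGLN hydroxylases mark the alpha subunits for degradation, so that HIF activity is set largely at the protein level. HIF binds a short core sequence in DNA and raises transcription of most glycolytic genes and of genes for blood vessel growth, pH control and removal of mitochondria. In the ovary, granulosa cells lie in a follicle wall without blood vessels and pass lactate and pyruvate to the oocyte.

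The authors deposited 5 tables, of C134W against WT and against EV, each without and with TGF, and of KGN with TGF against KGN without. They give a mean of normalized counts over both groups, a log2 fold change and an adjusted p for each gene, and no value per library. Levels of a group are therefore implied levels in normalized counts. They were computed from the deposited mean and from the fold change after its moderation towards 0 was undone, with the strength of that moderation assumed. They carry no spread of their own, and the groups of a table lie farther apart in them than the deposited fold change puts them. They may lie too far apart, since the assumed moderation may be too strong. For NDRG1 in C134W against WT without TGF the fold change was -0.84 as deposited and -1.21 undone. The "±" of a fold change is the deposited standard error on the log2 scale, and "higher", "lower", "rose" and "fell" mean an adjusted p under 0.05. The HGrC1 tables behaved as 3 libraries for each group, as labelled, while the KGN table behaved as 5 treated and 6 untreated libraries against 5 and 4 in the labels. Estimated depth ran from 3590000 to 19600000 assigned reads per library. No source used here ties replicate libraries to separate cultures, so the p-values reflect the spread between these samples alone, which may be technical. FOXL2 was 6.27 ± 0.20 above EV without TGF and 6.16 ± 0.24 above it with TGF in the authors' deposited tables. The same tables put C134W cells at -0.13 ± 0.06 against WT without TGF, not passing, and at -0.27 ± 0.11 with TGF, by the authors' deposited values. Of 16 granulosa cell markers, 9 to 12 had a mean of at least 10 in each table. The FSH receptor gene FSHR had a mean of 0.526 at most, and the steroidogenic factor NR5A1 was under 1 in HGrC1 but at 830 in KGN. Of 5 endothelial and 5 immune markers, 2 and 1 at most reached a mean of 10, summing to 20.2 to 32.3 and 26.1 to 129 normalized counts, and the T cell gene CD3E was at 0 throughout. Of 8 theca and stroma markers 2 to 4 reached that mean (sums 604 to 8873), and of 5 Sertoli markers SOX9 and CLDN11 did (sums 1405 to 6257).

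Promoter sequences are shown for the genes on which the results below turn: EPAS1 and PFKFB3, which rose most in C134W over WT cells with TGF, LDHA, which fell, and SLC2A1, which rose most in KGN. Each run is the 250 bases before an annotated transcript start, 5′ to 3′ on the gene's strand, from RefSeq on GRCh38.p14. Capitals mark the HIF core, ACGTG or GCGTG, on either strand, so that a core on the other strand reads CACGT or CACGC. The palindrome CACGTG holds overlapping cores on both strands and counts as 2.
EPAS1, chr2:46297157-46297406, plus strand: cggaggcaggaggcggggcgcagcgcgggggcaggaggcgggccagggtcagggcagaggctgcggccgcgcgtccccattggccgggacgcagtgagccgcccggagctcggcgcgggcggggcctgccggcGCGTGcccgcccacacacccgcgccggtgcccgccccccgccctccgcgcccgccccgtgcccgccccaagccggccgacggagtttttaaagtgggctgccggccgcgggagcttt
PFKFB3, chr10:6202682-6202931, plus strand: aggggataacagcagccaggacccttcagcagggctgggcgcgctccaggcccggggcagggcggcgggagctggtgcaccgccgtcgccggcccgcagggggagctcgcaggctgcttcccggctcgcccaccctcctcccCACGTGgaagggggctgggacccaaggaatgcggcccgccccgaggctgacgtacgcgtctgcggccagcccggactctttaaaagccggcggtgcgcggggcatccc
PFKFB3, chr10:6144671-6144920, plus strand: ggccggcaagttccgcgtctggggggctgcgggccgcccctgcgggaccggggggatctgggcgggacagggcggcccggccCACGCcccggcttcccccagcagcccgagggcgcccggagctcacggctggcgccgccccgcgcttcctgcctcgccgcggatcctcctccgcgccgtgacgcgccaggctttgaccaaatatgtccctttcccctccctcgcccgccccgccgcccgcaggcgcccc
LDHA, chr11:18394313-18394562, plus strand: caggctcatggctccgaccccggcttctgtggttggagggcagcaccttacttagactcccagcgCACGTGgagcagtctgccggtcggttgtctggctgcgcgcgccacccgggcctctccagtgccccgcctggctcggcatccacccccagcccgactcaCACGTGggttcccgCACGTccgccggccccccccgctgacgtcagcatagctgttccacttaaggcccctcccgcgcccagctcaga
LDHA, chr11:18396101-18396350, plus strand: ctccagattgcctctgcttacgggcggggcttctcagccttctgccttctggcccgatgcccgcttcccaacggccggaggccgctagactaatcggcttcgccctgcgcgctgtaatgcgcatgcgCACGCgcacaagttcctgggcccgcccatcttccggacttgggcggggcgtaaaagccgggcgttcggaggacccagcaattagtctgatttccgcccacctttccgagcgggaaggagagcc
SLC2A1, chr1:42958869-42959118, minus strand: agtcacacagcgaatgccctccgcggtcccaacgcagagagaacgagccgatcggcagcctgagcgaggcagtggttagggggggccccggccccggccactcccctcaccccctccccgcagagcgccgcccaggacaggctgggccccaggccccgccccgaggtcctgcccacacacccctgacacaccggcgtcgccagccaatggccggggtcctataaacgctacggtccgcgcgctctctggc
The EPAS1 window held 1 core, its leftmost base 117 bases before the start. The PFKFB3 windows held 2 cores, which overlap in a palindrome, and 1 core. The first LDHA window held 5, of which 4 lie in 2 palindromes, its second window, of a start farther downstream, held 1, and the SLC2A1 window held 0. Windows were found for 34 of the 40 genes, 61 windows in all, and 28 of these 34 genes (82.4%) had a core in at least 1 window. The same was true of 64.5% of the 10457 genes with a window that were tested between C134W and WT with TGF. Counted by window, 36 of the 61 member windows (59.0%) held a core, and 43.2% of all 35116 windows did. The share by gene takes a core in any of a gene's windows, so it depends on the number of windows per gene. A match is a description of these letters and shows no binding.

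The question of the comparison with WT is what the C134W change adds to transduction with FOXL2. The labels name no separate lines per construct, so this change cannot be told apart from other differences between the lines. With TGF, most genes of glycolytic enzymes were lower in C134W than in WT cells, while EPAS1, PFKFB3, STC1, VEGFA, HK2 and ENO2 were higher. Of 39 members with an adjusted p in the authors' deposited table, 21 were lower and 6 higher, where 17.4% and 17.3% of all 14475 tested genes were. The median log2 fold change of the tested members was -0.26, and that of all tested genes lay between -0.02 and 0.01 in this and every other comparison. EPAS1 had the largest increase, 1.31 ± 0.10 in the authors' deposited table (adjusted p = 1.5e-40), and NDRG1 the largest decrease, -1.09 ± 0.10 (adjusted p = 1.04e-23). Abundant genes as a whole leaned downward in this comparison: of 2460 genes with a mean of at least 1000, 38.1% were lower, with a median of -0.10. Of the 20 members above that mean, 19 were lower, with a median of -0.36. When each fold change was centred on genes of similar mean, 18 members were lower and 6 higher, and SLC16A1, P4HA1 and HIF1A were no longer called. Among 75 cytosolic ribosomal protein genes, which are also abundant, 25 were lower and 1 higher in the authors' deposited table, and the part of such shifts in the members' result was not tested. In bulk RNA, fewer cells that make a transcript and less transcript per cell cannot be told apart.

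**Figure D1:**
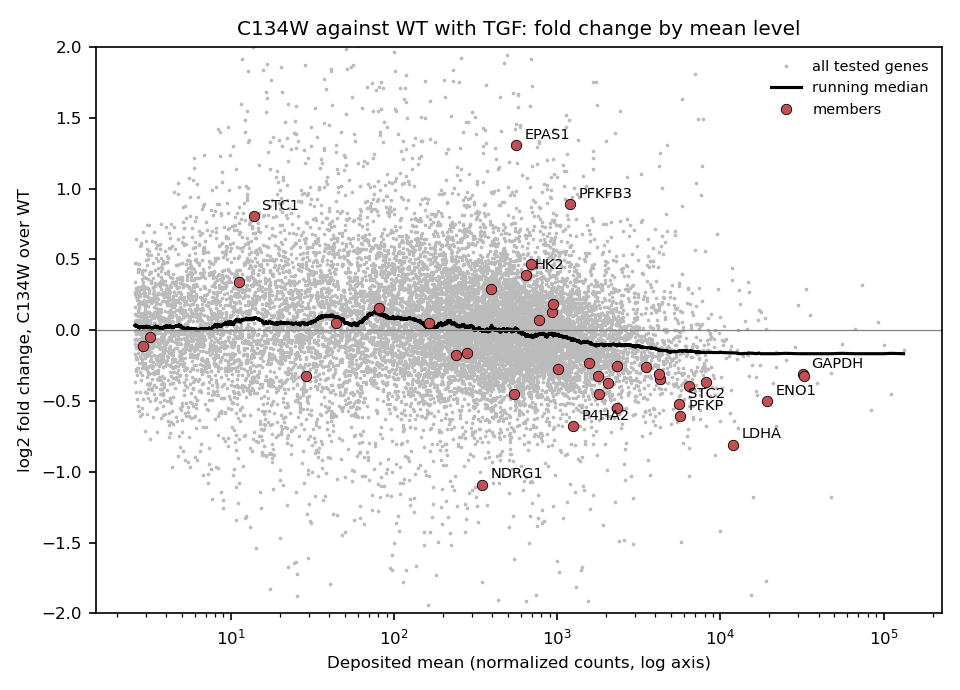
Deposited log2 fold change of C134W over WT with TGF (y axis) against the deposited mean in normalized counts (x axis, log scale), with all tested genes in grey, members in red and the running median of genes of similar mean as a black line. Members with means above 1000 lie mostly under the line, EPAS1 at 1.31 and PFKFB3 at 0.89 lie above it, and 67 genes beyond 2 on the log2 scale fall outside the plot.

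Without TGF the members called between C134W and WT were again mostly lower. Of 36 members tested 16 were lower in the authors' deposited table and 2 higher, where 11.5% and 10.9% of all tested genes were, and the members' median was -0.12. Of 2350 genes with a mean of at least 1000, 29.4% were lower and 16.3% higher, beside 13 and 1 of 19 such members. The 5 lowest called members there were NDRG1, ADM, STC2, PFKFB3 and LDHA. The only higher members were PFKL, a phosphofructokinase subunit, at 0.22 ± 0.06, and BNIP3L, a receptor for mitochondrial removal, at 0.16 ± 0.06 in the authors' deposited table. Of 75 cytosolic ribosomal protein genes 43 were lower and 1 higher there, with a median of -0.14. Centring on genes of similar mean ended the calls of TPI1 and SLC16A3 in this comparison.

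The comparison with the empty vector shows C134W cells against cells with little FOXL2. Without TGF, 17 of 38 tested members were higher in C134W and 4 lower in the authors' deposited table, where 13.7% and 12% of all tested genes were. With TGF, 18 of 40 were higher and 8 lower, where 22.5% and 20.2% were, so that the share of lower members was close to that of all genes. The members' medians were 0.17 without TGF and 0.18 with it. Of 2337 genes with a mean of at least 1000, 19.0% were higher and 17.6% lower without TGF, beside 9 and 1 of 19 such members. With TGF, 35.0% of 2866 such genes were higher and 26.8% lower, beside 9 and 6 of 22 members above that mean. SLC2A3 and STC2 led the increases without TGF, and HK2, PFKFB3, STC1 and EPAS1 those with TGF. Cytosolic ribosomal protein genes went the other way, with 34 of 75 lower without TGF and 50 of 75 with it in the authors' deposited tables. The stromal marker LUM had a mean of 1639 in the table against EV without TGF and of 515 in the table against WT. In the same tables DCN stood at 98.0 and 16.4, while ACTA2 stood at 130 and 138 and PDGFRA at 3.84 and 7.39. The other theca and stroma markers had means under 10 in both, and the part of these markers in the results was not tested.

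None of the 5 tables sets WT against EV, and this difference was computed here from the tables that share C134W. WT cells held more RNA of many members than EV cells did. Of 36 members tested without TGF, 16 were higher in WT and 3 lower (two-sided z test, Benjamini-Hochberg adjustment), where 12.2% and 10.4% of all genes tested were. The lower members were PFKL, PFKM and PDK1. With TGF, 22 of 37 were higher and 1, BNIP3L, lower, where 21.8% and 17.8% were. Centring on genes of similar mean ended the higher calls of GPI, ALDOA and SLC16A1 with TGF and raised the lower count to 4, adding PFKM, PFKP and VEGFA, and with the prior undone the lower count was 2. All 6 genes of lower glycolysis were higher in WT than in EV with TGF, from ENO2 at 0.38 ± 0.14 to PGAM1 at 0.80 ± 0.13 as the computed log2 difference. Abundant genes leaned the same way with TGF: 42.9% of 2422 genes with a mean of at least 1000 were higher in WT, with a median of 0.17, against 15 of 20 members with a median of 0.54. Without TGF, 20.7% of 2238 such genes were higher and 13.4% lower in WT, beside 11 and 1 of 19 members. The comparisons of C134W with WT and with EV share their C134W libraries, so their values are set side by side below and not correlated.

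**Figure D2:**
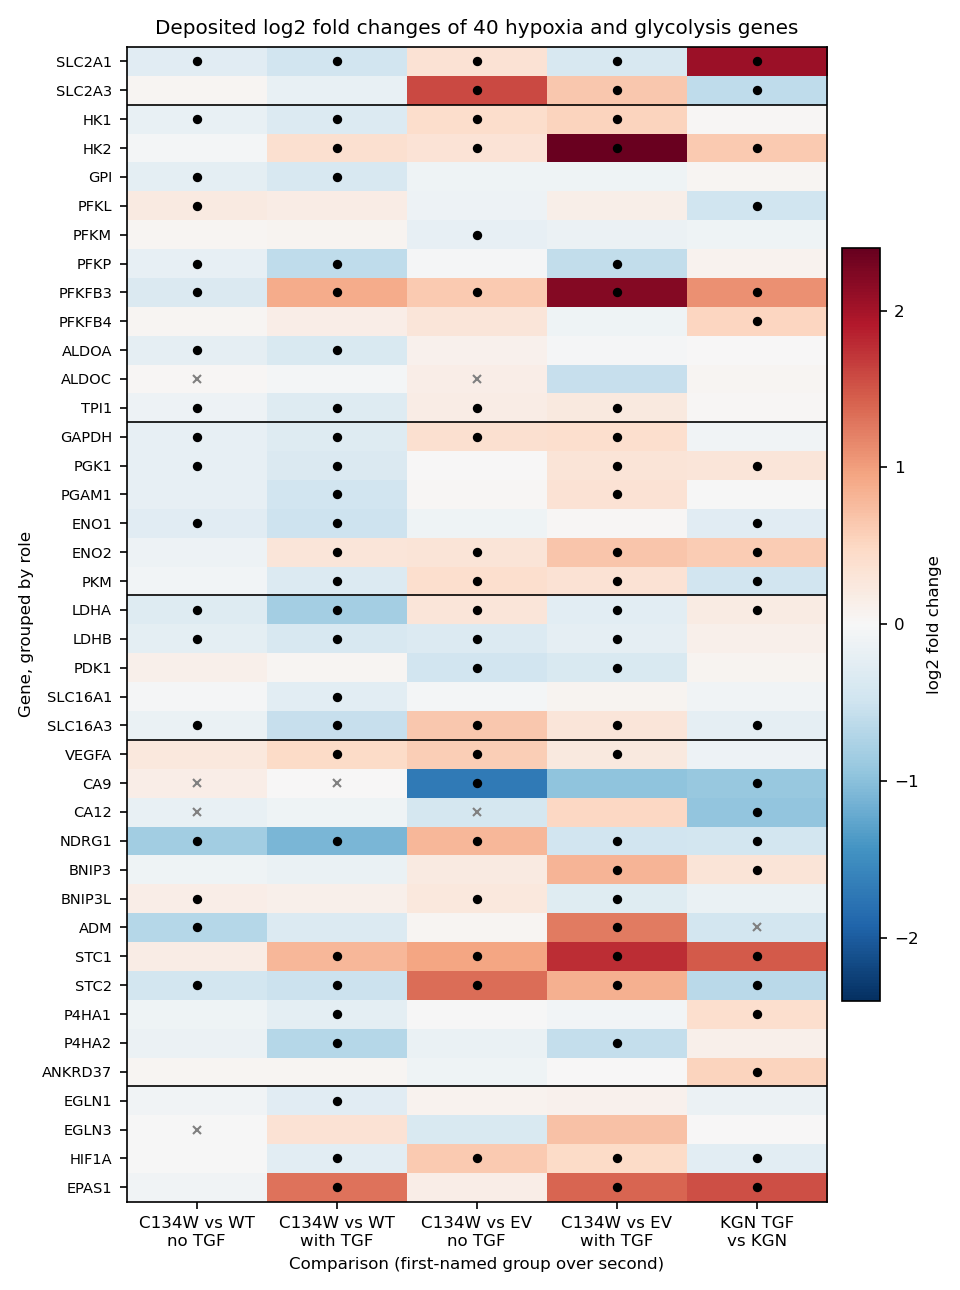
Deposited log2 fold changes of the 40 genes (rows, grouped by role and separated by lines) in the 5 comparisons (columns), red for higher and blue for lower in the first-named group, with a dot where the adjusted p was under 0.05 and a cross where the table gave none. Against WT with TGF 21 members carry a dot for lower and 6 for higher, and HK2 against EV with TGF is the deepest red at 2.37.

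Glucose uptake genes came first in the pathway. SLC2A1 (chromosome 1, 42925353 to 42958868), the widespread transporter GLUT1, had implied levels of 973 in EV, 1543 in WT and 1258 in C134W cells without TGF, and 2008, 2105 and 1516 with TGF. WT cells were highest without TGF, and C134W cells were lowest with it. As computed here, WT was above EV by 0.62 ± 0.10 without TGF (z test, adjusted p = 1.02e-08). With TGF this difference was 0.06 ± 0.10 and did not pass (adjusted p = 0.67). Against WT, C134W cells were lower by the authors' deposited tables, at -0.27 ± 0.05 without TGF and -0.45 ± 0.07 with it. Against EV the deposited tables of the authors put SLC2A1 higher at 0.35 ± 0.09 without TGF and lower at -0.39 ± 0.07 with it, and this change with TGF passed (-0.74 ± 0.11, adjusted p = 2.29e-10, z test). The neuronal-type transporter gene SLC2A3 had levels of 65.1 in EV, 251 in WT and 273 in C134W cells without TGF, and 140.2, 259 and 226 with TGF. EV cells were lowest in both states, and WT and C134W cells lay close together. In the authors' deposited tables SLC2A3 was 1.59 ± 0.15 above EV without TGF and 0.65 ± 0.13 with it, and against WT it was 0.05 ± 0.10 and -0.18 ± 0.12, neither of which passed. The difference from EV was smaller with TGF (-0.95 ± 0.20, adjusted p = 2.52e-05).

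The hexokinases trap glucose in the cell. HK2 (chromosome 2, 74834127 to 74893359), the inducible and HIF-responsive form, had levels of 290.2 in EV, 388 in WT and 370.3 in C134W cells without TGF, and 131, 553 and 744 with TGF. EV cells with TGF stood far below all other groups. The authors' deposited table put HK2 in C134W at 2.37 ± 0.11 above EV with TGF (adjusted p = 3.93e-106) but only 0.32 ± 0.11 without TGF, a difference of 2.05 ± 0.15 (z test, adjusted p = 6.61e-39). WT cells were also above EV, by 0.37 ± 0.14 without TGF and 1.98 ± 0.14 with it as computed here. C134W against WT stood at -0.06 ± 0.09 without TGF, not passing, and 0.39 ± 0.09 with it in the authors' deposited tables. HK1, the housekeeping form, had levels of 1326 in EV, 2048 in WT and 1789 in C134W cells without TGF, and 1080.3, 1975 and 1571 with TGF. It was lower than in WT, at -0.18 ± 0.05 and -0.32 ± 0.06 without and with TGF, and higher than in EV, at 0.41 ± 0.07 and 0.53 ± 0.06, in the authors' deposited tables. Neither difference passed the test of a change with TGF (adjusted p = 0.289 against WT and 0.439 against EV).

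Phosphofructokinase makes the committed step, and its activator is made and removed by the PFKFB enzymes. PFKFB3 (chromosome 10, 6144921 to 6326637), the form that mostly makes the activator, had levels of 278 in EV, 595 in WT and 446 in C134W cells without TGF, and 331, 819.9 and 1585 with TGF. EV cells were lowest in both states, WT highest without TGF and C134W highest with it. PFKFB3 was the only member called in opposite directions against WT: in the authors' deposited tables C134W was -0.34 ± 0.07 without TGF (adjusted p = 5.43e-05) and 0.89 ± 0.08 with it (adjusted p = 1.04e-28). The difference was 1.23 ± 0.11 (z test, adjusted p = 6.58e-28). Against EV the authors' deposited values were 0.63 ± 0.10 and 2.19 ± 0.08, and that difference was 1.57 ± 0.13 (adjusted p = 1.75e-31). Its paralog PFKFB4 passed in none of the HGrC1 tables, with deposited values from -0.10 to 0.30 and means of 64.4 to 103. Of the subunits of phosphofructokinase itself, PFKP, the platelet form, had levels of 5957 in EV, 6771 in WT and 5866 in C134W cells without TGF, and 6827, 6934 and 4462 with TGF. C134W cells with TGF were lowest, and the other groups lay within a narrow range. The authors' deposited tables put PFKP at -0.61 ± 0.07 against WT and -0.60 ± 0.06 against EV with TGF, and without TGF at -0.20 ± 0.04 and -0.02 ± 0.08, the last not passing. Both of its changes with TGF passed, at -0.41 ± 0.08 (adjusted p = 2.3e-06) and -0.58 ± 0.10 (adjusted p = 4.34e-07). Of PFKL and PFKM, the liver and muscle forms, PFKL was called in the authors' deposited HGrC1 tables only against WT without TGF, and PFKM only against EV without TGF, at -0.20 ± 0.08. Without TGF both were lower in WT than in EV cells as computed here, PFKL at -0.34 ± 0.12 (adjusted p = 0.0254) and PFKM at -0.25 ± 0.10 (adjusted p = 0.0419, or 0.0582 and not passing with no minimum mean).

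The aldolase and isomerase genes ALDOA, GPI and TPI1 were lower in C134W than in WT in both states. ALDOA, the main aldolase, had levels of 8483 in EV, 10612 in WT and 9103 in C134W cells without TGF, and 7261, 9255 and 7086 with TGF. It was lower than in WT by the authors' deposited tables, at -0.21 ± 0.03 without and -0.37 ± 0.07 with TGF, and did not pass against EV. GPI, which isomerizes glucose phosphate, was -0.23 ± 0.04 and -0.38 ± 0.07 against WT, and TPI1, which interconverts the triose phosphates, -0.12 ± 0.04 and -0.31 ± 0.06, in the authors' deposited tables. The TPI1 call without TGF did not hold after centring on genes of similar mean (-0.03, adjusted p = 0.604). Against EV, TPI1 was higher, at 0.17 ± 0.07 and 0.24 ± 0.05 in the authors' deposited tables, while GPI did not pass. The aldolase paralog ALDOC had means under 10 in all 5 tables and was called in none.

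In lower glycolysis GAPDH, PGK1, PGAM1, ENO1 and PKM were lower in C134W than in WT with TGF, and ENO2 was higher. GAPDH, often used as a reference gene, had levels of 27986 in EV, 42255 in WT and 36867 in C134W cells without TGF, and 21665, 35743 and 28646 with TGF. WT cells were highest and EV cells lowest in both states. The authors' deposited tables put GAPDH at -0.19 ± 0.03 and -0.31 ± 0.06 against WT without and with TGF, and at 0.38 ± 0.07 and 0.40 ± 0.05 against EV. PGK1, the first enzyme of the pathway to make ATP, was -0.19 ± 0.04 and -0.34 ± 0.06 against WT in the authors' deposited tables. Against EV it was 0.01 ± 0.06 without TGF, not passing, and 0.30 ± 0.06 with it by the authors' deposited tables, a difference of 0.29 ± 0.08 (adjusted p = 0.00421). PGAM1, a phosphoglycerate mutase, passed only with TGF, at -0.45 ± 0.09 against WT and 0.35 ± 0.09 against EV in the authors' deposited tables. PKM, the pyruvate kinase, had levels of 27812 in EV, 38527 in WT and 36900.1 in C134W cells without TGF, and 22480.5, 36146 and 28678 with TGF. It was lower against WT only with TGF, at -0.33 ± 0.05, and higher against EV in both states, at 0.39 ± 0.06 and 0.35 ± 0.05, in the authors' deposited tables.

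The enolase paralogs ENO1 and ENO2 did not move together. ENO1 (chromosome 1, 8861000 to 8878686), the common form, had levels of 23283 in EV, 26399.8 in WT and 21607 in C134W cells without TGF, and 15632, 22799.9 and 15977 with TGF. With TGF, EV and C134W cells lay close together below WT. In the authors' deposited tables ENO1 was -0.28 ± 0.03 and -0.50 ± 0.05 against WT, and passed in neither table against EV (-0.10 ± 0.07 and 0.03 ± 0.05). ENO2, the form named for neurons, had levels of 336 in EV, 474 in WT and 427 in C134W cells without TGF, and 270.5, 349.9 and 441 with TGF. The authors' deposited tables put it at -0.12 ± 0.08 against WT without TGF, not passing, at 0.29 ± 0.10 with TGF, and at 0.32 ± 0.10 and 0.67 ± 0.10 against EV. Against WT the change with TGF was -0.22 ± 0.06 for ENO1 (adjusted p = 0.00244) and 0.41 ± 0.13 for ENO2 (adjusted p = 0.0145). Centred on genes of similar mean, the change of ENO1 was -0.12 and did not pass (adjusted p = 0.184). Several of the abundant enzymes, GAPDH, TPI1, PGK1, PGAM1, ENO1, LDHA and LDHB among them, have processed pseudogenes. How reads shared with such copies were counted is not given in the sources used here, so small changes of these genes are uncertain.

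At the end of the pathway LDHA turns pyruvate to lactate. LDHA (chromosome 11, 18394563 to 18408425) had levels of 8809 in EV, 13486 in WT and 10759.9 in C134W cells without TGF, and 10276, 15310.4 and 8619 with TGF. WT cells were highest in both states, and C134W cells were between WT and EV without TGF and lowest with it. Against WT the authors' deposited tables put it at -0.31 ± 0.03 without TGF (adjusted p = 4.92e-19) and -0.81 ± 0.05 with it (adjusted p = 1.18e-52), and the change with TGF was -0.49 ± 0.06 (adjusted p = 1.03e-13). Against EV it was higher without TGF, at 0.28 ± 0.06, and lower with TGF, at -0.25 ± 0.05, in the authors' deposited tables, a change of -0.53 ± 0.07 (adjusted p = 5.24e-11). LDHB, which favours the reverse reaction, was lower in all 4 HGrC1 tables that the authors deposited, at -0.23 ± 0.03 and -0.39 ± 0.06 against WT and -0.33 ± 0.06 and -0.22 ± 0.05 against EV. Its levels were 8099 in EV, 7543 in WT and 6387 in C134W cells without TGF, and 6477, 7325 and 5533 with TGF. The lactate exporter gene SLC16A3 (MCT4) had levels of 1566 in EV, 2916 in WT and 2611 in C134W cells without TGF, and 1552, 2815 and 1883 with TGF. C134W cells were below WT, at -0.16 ± 0.05 and -0.55 ± 0.08, and above EV, at 0.64 ± 0.12 and 0.28 ± 0.08, in the authors' deposited tables. Its change with TGF passed against WT (-0.38 ± 0.10, adjusted p = 0.00101) and not against EV (adjusted p = 0.0608), where it passed after centring on genes of similar mean (-0.40, adjusted p = 0.0334). Centring ended the SLC16A3 call against WT without TGF (-0.10, adjusted p = 0.126). SLC16A1 (MCT1), which carries lactate both ways, passed in the authors' deposited tables only against WT with TGF, at -0.26 ± 0.07, with a change of -0.24 ± 0.08 (adjusted p = 0.0423), and was higher in WT than in EV with TGF, at 0.32 ± 0.10 as computed here. None of these 3 SLC16A1 calls held after centring on genes of similar mean (adjusted p = 0.086, 0.26 and 0.106). PDK1, the kinase that keeps pyruvate out of the mitochondria, was lower than in EV, at -0.46 ± 0.13 and -0.37 ± 0.13, and did not pass against WT in the authors' deposited tables.

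Among the HIF subunits EPAS1, which encodes HIF-2alpha, separated C134W from the other lines only where TGF was present. EPAS1 (chromosome 2, 46297407 to 46386697) had levels of 508 in EV, 615 in WT and 574 in C134W cells without TGF, and 293, 298 and 815 with TGF. Without TGF the 3 lines lay close together, and with TGF the EV and WT cells were level with each other and C134W cells far above both. The authors' deposited tables put C134W at -0.08 ± 0.07 against WT and 0.17 ± 0.09 against EV without TGF, neither passing. With TGF they were 1.31 ± 0.10 and 1.40 ± 0.09 in the authors' deposited tables (adjusted p = 1.5e-40 and 4.07e-49). The change with TGF was 1.39 ± 0.12 against WT (adjusted p = 3.27e-29) and 1.24 ± 0.13 against EV (adjusted p = 3.14e-19), the largest of all members against WT. WT did not pass against EV in either state (0.25 ± 0.12 and 0.10 ± 0.13). The levels without and with TGF were put on 1 scale only through the median ratio of C134W levels, so no test was made of the lower values in EV and WT cells with TGF.

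**Figure D3:**
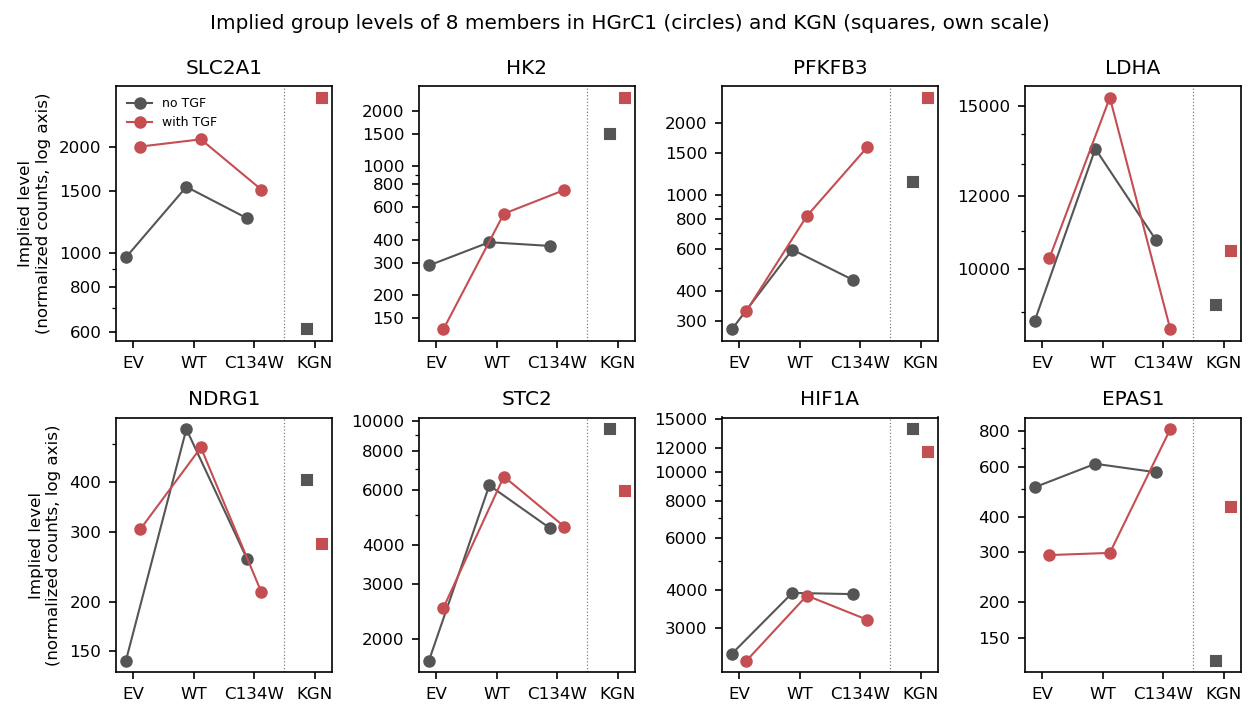
Implied group levels in normalized counts (y axis, log scale) of 8 members in EV, WT and C134W HGrC1 cells (circles) and in KGN cells (squares, on a scale of their own), without TGF in grey and with TGF in red. EPAS1 in HGrC1 is highest in C134W with TGF at 815, LDHA in WT with TGF at 15310.4, and HK2 is lowest in EV with TGF at 131.

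HIF1A (chromosome 14, 61695513 to 61748258), the other alpha subunit, had levels of 2451 in EV, 3922 in WT and 3886 in C134W cells without TGF, and 2321, 3842 and 3187 with TGF. EV cells were lowest in both states. It was higher in C134W than in EV, at 0.63 ± 0.08 and 0.45 ± 0.06, and WT was above EV by 0.65 ± 0.09 and 0.72 ± 0.08, the last pair computed here and the first in the authors' deposited tables. Set against WT, HIF1A was -0.02 ± 0.04 without TGF, not passing, and -0.26 ± 0.06 with TGF in the authors' deposited tables, a change of -0.24 ± 0.07 (adjusted p = 0.00626). Centred on genes of similar mean, neither HIF1A call held, at -0.14 against WT with TGF (adjusted p = 0.0518) and -0.16 for the change (adjusted p = 0.114). HIF1A has antisense transcripts at its locus, and the library kit does not mark strand, so reads from either strand could not be told apart. The hydroxylase gene EGLN1 had levels of 998 in EV, 1132 in WT and 1059 in C134W cells without TGF, and 844, 1112 and 909.7 with TGF. It passed in the authors' deposited tables only against WT with TGF, at -0.27 ± 0.08, and was higher in WT than in EV with TGF, at 0.38 ± 0.11 as computed here (adjusted p = 0.00195). EGLN3, a hydroxylase that HIF itself induces, had a mean of 12.2 at most and passed in none.

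The other HIF targets did not move as a block. With TGF against WT, 2 of 11 tested were higher, 4 lower and 5 did not pass in the authors' deposited table. Of all tested genes, 17.3% were higher and 17.4% lower there. NDRG1, a stress-response gene, had levels of 142 in EV, 545 in WT and 257 in C134W cells without TGF, and 305, 490.0 and 211 with TGF. WT cells were highest in both states, and C134W cells were lowest with TGF. The authors' deposited tables put it at -0.84 ± 0.08 and -1.09 ± 0.10 against WT, without a called change (-0.25 ± 0.13, adjusted p = 0.24). Against EV it turned from 0.79 ± 0.13 without TGF to -0.46 ± 0.11 with it in the authors' deposited tables (-1.25 ± 0.17, adjusted p = 9.3e-12). STC2 (chromosome 5, 173314723 to 173328414), a secreted stanniocalcin, had levels of 1703 in EV, 6217 in WT and 4535 in C134W cells without TGF, and 2515, 6636 and 4584 with TGF. C134W cells lay between WT and EV in both states. The authors' deposited values were -0.45 ± 0.03 and -0.52 ± 0.05 against WT and 1.34 ± 0.07 and 0.86 ± 0.05 against EV, and the last pair differed by -0.48 ± 0.09 (adjusted p = 7.64e-07). Its paralog STC1 was scarce in HGrC1, with means of 10.1 to 13.8, and was 0.80 ± 0.29 against WT with TGF, 0.94 ± 0.30 against EV without and 1.77 ± 0.40 with TGF in the authors' deposited tables. VEGFA, the blood vessel growth factor, had levels of 161 in EV, 197 in WT and 271 in C134W cells without TGF, and 686, 573 and 809 with TGF. It passed against WT with TGF at 0.47 ± 0.08, and against EV at 0.60 ± 0.13 and 0.23 ± 0.07, in the authors' deposited tables. The pH-regulating carbonic anhydrase gene CA9 was called once in HGrC1, at -1.70 ± 0.27 against EV without TGF with a mean of 27.2 in the authors' deposited table, and CA12 had means under 10 in all 5 tables.

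The paralogs BNIP3 and BNIP3L, receptors for mitochondrial removal, differed. BNIP3 had levels of 285 in EV, 371 in WT and 333 in C134W cells without TGF, and 145, 297 and 263 with TGF, with EV cells given TGF lowest. Of the authors' deposited HGrC1 tables it passed only in that against EV with TGF, at 0.81 ± 0.13, a change of 0.61 ± 0.17 (adjusted p = 0.00265), and WT was above EV with TGF by 0.98 ± 0.17 as computed here. BNIP3L was 0.26 ± 0.09 against EV without TGF and -0.29 ± 0.07 with it in the authors' deposited tables, a change the other way of -0.55 ± 0.11 (adjusted p = 1.76e-05). ADM, a vasodilator peptide gene, was -0.68 ± 0.15 against WT without TGF and 1.24 ± 0.35 against EV with TGF in the authors' deposited tables, at means of 43.9 and 19.1, and its change against EV was 1.19 ± 0.44 (adjusted p = 0.0376, or 0.05 and not passing with no minimum mean). The collagen prolyl hydroxylase subunit gene P4HA2 had levels of 946 in EV, 945 in WT and 843 in C134W cells without TGF, and 1437, 1566 and 955 with TGF. It was -0.68 ± 0.07 against WT and -0.57 ± 0.07 against EV with TGF in the authors' deposited tables and passed in neither without TGF, with changes of -0.54 ± 0.09 (adjusted p = 2.22e-07) and -0.42 ± 0.11 (adjusted p = 0.00105). P4HA1, the paralogous subunit, was called in the authors' deposited HGrC1 tables only against WT with TGF, at -0.23 ± 0.07, and not after centring on genes of similar mean (-0.15, adjusted p = 0.0944). ANKRD37, a small ankyrin-repeat gene, passed in none of the HGrC1 tables, with means of 39.6 to 51.5.

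Over all members, TGF altered the difference between C134W and WT in 13 of 36 genes tested, 4 upward (HK2, PFKFB3, ENO2 and EPAS1) and 9 downward. Among all genes tested, 6% changed upward and 7.15% downward. The abundant members account for 8 of the 9, and of all genes with a mean of at least 1000, 18.1% changed downward, against 8 of 18 such members. Centring on genes of similar mean left 5 downward changes, ending those of TPI1, ENO1, SLC16A1 and HIF1A. Against EV, 6 of 37 members changed upward and 8 downward, where 9.78% and 9.4% of all genes did. Of 2271 genes with a mean of at least 1000, 16.4% changed upward and 13.3% downward there, beside 1 and 4 of 19 such members. PFKFB3, HK2 and EPAS1 were called upward against both references, and PFKP, LDHA and P4HA2 downward against both, which share their C134W libraries.

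**Figure D4:**
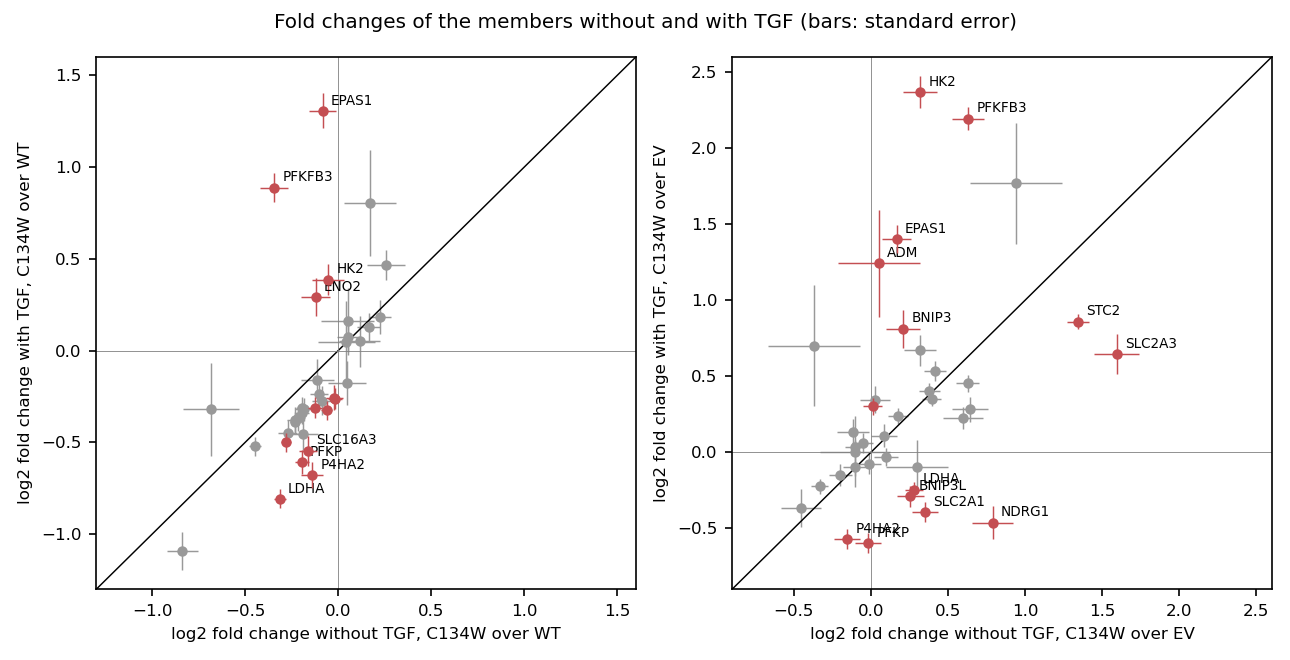
Deposited log2 fold changes of C134W over WT (left) and over EV (right) without TGF (x axis) and with TGF (y axis), 1 point per member with standard errors as bars, red where the difference passed at an adjusted p under 0.05. EPAS1 and PFKFB3 lie far above the line of equal values in both panels, by 1.39 and 1.23 on the left, and NDRG1 lies farthest below it on the right, by -1.25.

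In KGN, TGF changed the members in both directions. Of 39 tested, 12 were higher and 10 lower in the authors' deposited table, where 19.8% and 20% of all tested genes were, and the members' median was 0.02. Of 1777 genes with a mean of at least 1000, 37.8% were higher and 26.6% lower, beside 6 and 5 of 22 such members. SLC2A1 rose most, from an implied level of 609 without TGF and 2764 with it, at 2.06 ± 0.10 in the authors' deposited table (adjusted p = 4.89e-102). SLC2A3 fell, at -0.60 ± 0.13 in the authors' deposited table, so the glucose transporter genes moved in opposite directions. EPAS1 had levels of 124 without TGF and 433 with it (141 without TGF if the fold change is taken as deposited), and its deposited change in the authors' table was 1.55 ± 0.15 (adjusted p = 1.34e-23), while HIF1A, at 13899.8 without TGF and 11670.5 with it, was -0.25 ± 0.03. STC1 rose at 1.47 ± 0.15 and STC2 fell at -0.65 ± 0.05 in the authors' deposited table, from levels of 30.3 without TGF and 98.6 with it for STC1 and 9417 without TGF and 5965 with it for STC2. PFKFB3 was 1.10 ± 0.09, from 1140.5 without TGF and 2543 with it, and its paralog PFKFB4 0.52 ± 0.18, in the authors' deposited table. HK2 was 0.64 ± 0.06 and HK1 0.02 ± 0.03, the second not passing, in the authors' deposited table. PFKL fell at -0.47 ± 0.08, with PFKP at 0.08 ± 0.07 and PFKM at -0.11 ± 0.05 not passing in the authors' deposited table.

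In lower glycolysis the KGN response was split. PGK1 and ENO2 rose, at 0.30 ± 0.04 and 0.61 ± 0.11, and PKM and ENO1 fell, at -0.45 ± 0.05 and -0.27 ± 0.07, in the authors' deposited table, while GAPDH and PGAM1 did not pass. LDHA rose slightly, from 9157 without TGF and 10457 with it, at 0.19 ± 0.05, SLC16A3 fell at -0.21 ± 0.08, and LDHB and SLC16A1 did not pass in the authors' deposited table. Among other HIF targets, BNIP3 at 0.31 ± 0.12, P4HA1 at 0.41 ± 0.14 and ANKRD37 at 0.54 ± 0.12 were higher, and NDRG1 at -0.44 ± 0.17, CA9 at -0.92 ± 0.26 and CA12 at -0.94 ± 0.37 lower, in the authors' deposited table. CA9 and CA12 had means of 18.9 and 5.19 there, and centring on genes of similar mean ended the calls of CA12 and BNIP3. ADM had a mean under 1 and no adjusted p in KGN. VEGFA, BNIP3L, P4HA2, EGLN1 and EGLN3 were among the 17 members that did not pass in KGN. Of 75 cytosolic ribosomal protein genes, 15 were higher and 1 lower in the authors' deposited table. The KGN libraries are shared with no HGrC1 table, but KGN differs from HGrC1 in origin, so the values are set side by side without a test.

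Genes around the pathway were counted from 4 further lists, in which the share tested varied with the table. The shares of all tested genes to set beside these counts were 10.9% higher and 11.5% lower against WT without TGF, 17.3% and 17.4% with TGF, 13.7% and 12% against EV without TGF, 22.5% and 20.2% with TGF, and 19.8% and 20% in KGN. Of 32 further genes of the HIF system and its targets, 3 of 27 tested were higher and 4 lower against WT without TGF in the authors' deposited table, and 10 and 7 of 30 with TGF. Against EV the counts were 10 and 5 of 30 without TGF and 7 and 9 of 32 with it, and in KGN 10 and 7 of 31, in the authors' deposited tables. ANGPTL4, a secreted inhibitor of lipoprotein lipase, was 1.10 ± 0.12 against WT with TGF, and 1.52 ± 0.30 without and 5.30 ± 0.25 with TGF against EV, in the authors' deposited tables. LOX, the collagen crosslinking oxidase, was 1.61 ± 0.08 against EV without TGF, 1.13 ± 0.06 with it and 1.10 ± 0.10 in KGN, in the authors' deposited tables. ARNT2, a relative of the stable HIF partner, was 1.37 ± 0.17 against EV with TGF in the authors' deposited table. Other genes of this list fell with TGF: the membrane protein gene TMEM45A was -1.25 ± 0.14 against WT and -1.24 ± 0.14 against EV, PPP1R3C, which targets a phosphatase to glycogen, -2.03 ± 0.12 against EV, and PPFIA4, a liprin gene, -1.12 ± 0.42 against EV, in the authors' deposited tables. In KGN the transcription factor gene BHLHE40 was 1.25 ± 0.10 and the collagen lysyl hydroxylase gene PLOD2 1.04 ± 0.09, while CITED2, which competes with HIF for its coactivator, was -1.74 ± 0.05 and DDIT4, an inhibitor of mTORC1, -1.29 ± 0.29, in the authors' deposited table.

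Of 22 further glycolysis and glycogen genes, 0 of 15 tested were higher and 6 lower against WT without TGF in the authors' deposited table, and 0 and 4 of 18 with TGF. They had 3 higher and 3 lower of 15 against EV without TGF, 5 and 5 of 19 with it and 5 and 5 of 17 in KGN, in the authors' deposited tables. The muscle enolase gene ENO3 was -1.03 ± 0.12 against WT with TGF, and PFKFB2, the heart PFKFB paralog, -1.57 ± 0.15 against EV with TGF, in the authors' deposited tables. BPGM, which makes bisphosphoglycerate, was 1.29 ± 0.10 against EV with TGF and 1.19 ± 0.08 in KGN, and the liver glycogen phosphorylase gene PYGL -1.28 ± 0.16 in KGN, in the authors' deposited tables. Of 9 pentose phosphate genes, all tested, 0 were higher and 4 lower against WT without TGF, 1 and 5 with it, 1 and 3 against EV without TGF, 2 and 2 with it and 1 and 3 in KGN, in the authors' deposited tables. The transketolase gene TKT was -1.05 ± 0.07 against EV with TGF in the authors' deposited table. Of 29 genes of pyruvate oxidation and the citrate cycle, 3 of 28 tested were higher and 7 lower against WT without TGF, and 1 and 12 of 28 with TGF, in the authors' deposited tables. Against EV their counts were 6 and 3 of 28 without TGF and 6 and 6 of 29 with it, and in KGN 9 and 8 of 29, in the authors' deposited tables.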

How the data were processed

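RNA of 27 samples in 8 groups was analysed, and 78 chromatin samples were not analysed here. Libraries were made from total RNA with a kit that does not mark strand, per the labels' protocols. The submitters' processing notes list Trimmomatic 0.36.0, Bowtie2, HTSeq 0.6.1, DESeq2 and build hg38, without their roles. The notes name no aligner for spliced reads, so how reads across exon junctions or shared with pseudogenes were placed is not given in any source used here. The authors deposited, per gene, a signal, the mean of counts divided by size factors, a log2 fold change, its standard error and Wald statistic (2 score columns) and the raw and Benjamini-Hochberg adjusted p-values, from DESeq2 per the labels.

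The deposited fold changes are moderated towards 0. The prior SD was assumed to be each table's largest standard error, from 0.154 (C134W against WT without TGF) to 0.453. The undoing assumes a standard error that rises towards the prior SD as counts fall. Against WT without TGF it was instead 0.152 for ADM at a mean of 43.9 and 0.085 for CA12 at 3.17. The assumed prior SDs may therefore be too small, and the undone fold changes may lie too far from 0. The prior was undone for implied levels and as an alternative, only where it held a share under 0.5 of the precision, a limit chosen after seeing the data. All 8 levels were obtained for 31 members. HGrC1 levels with and without TGF were joined by the median ratio of C134W levels. Genes seen by a single read gave the number of libraries and an estimated depth. Differences of tables were tested by a two-sided z test over genes whose mean was at least 10 in both, with Benjamini-Hochberg adjustment. For WT against EV the shared C134W error is counted in both tables, so the error is too large rather than too small. The subtracted fold changes were, however, moderated to different extents. Without TGF the largest standard error was 0.154 against WT and 0.300 against EV, and with TGF it was 0.294 and 0.453. The z tests of differences make no allowance for this. Running medians used 501 genes. The steps were tested on simulated data. For the undone prior, the simulated standard errors followed the same formula that the undoing inverts. That check therefore cannot show that the formula holds for the deposited values. Python 3.11.15, numpy 2.4.6, pandas 2.3.3, scipy 1.17.1 and matplotlib 3.10.9 were used. Alternatives were a threshold of 0.01, a minimum mean of 50 or none, centring on genes of similar mean, and the undone prior.

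Members and lists were chosen with earlier results of these data known. Values are given for the 5 highest and 5 lowest called members of each comparison, members called in all 4 HGrC1 tables or in opposite directions, those whose difference changed with TGF, the glucose transporters, the HIF subunits and hydroxylases, and paralog pairs. Genes of the other lists were named where called with an absolute log2 fold change of at least 1.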

Additional observations from a re-analysis of the deposited data

Results flagged for a closer look

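The difference between C134W and WT cells changed with TGF in 13 of 36 members tested, by a two-sided z test of the difference itself. It was taken on the log2 scale, with TGF minus without, and called at a Benjamini-Hochberg adjusted p under 0.05. Of all genes tested, 6% changed upward and 7.15% downward. Upward changes were EPAS1 at 1.39, PFKFB3 at 1.23, HK2 at 0.44 and ENO2 at 0.41. Downward changes among glycolytic enzymes were LDHA at -0.49, PFKP at -0.41, PKM at -0.26, ENO1 at -0.22 and TPI1 at -0.19. The remaining downward changes were P4HA2 at -0.54, SLC16A3 at -0.38, HIF1A at -0.24 and SLC16A1 at -0.24.

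Against EV the difference changed with TGF in 14 of 37 members by the same test, where 9.78% of all genes tested changed upward and 9.4% downward. Upward changes were HK2 at 2.05, PFKFB3 at 1.57, EPAS1 at 1.24, ADM at 1.19, BNIP3 at 0.61 and PGK1 at 0.29. Downward changes were NDRG1 at -1.25, SLC2A3 at -0.95, SLC2A1 at -0.74, PFKP at -0.58, BNIP3L at -0.55, LDHA at -0.53, STC2 at -0.48 and P4HA2 at -0.42. SLC2A1, LDHA, NDRG1 and BNIP3L were called in opposite directions against EV without and with TGF. In each of these genes the implied EV level was higher with TGF than without, for example 305 against 142 for NDRG1 and 2008 against 973 for SLC2A1, on the joined scale and without a test. Implied C134W levels with TGF were lower for LDHA, at 8619 against 10759.9 without TGF, and for NDRG1, at 211 against 257. They were higher for SLC2A1, at 1516 against 1258, and 971 against 975 for BNIP3L, also without a test.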

How the results depend on the processing

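Counts of members kept within 1.5 times their value under most alternatives. At an adjusted p under 0.01 the higher members against WT without TGF were 1 in place of 2. Centred on genes of similar mean, 5 members in place of 9 changed downward with TGF against WT, and 4 in place of 1 were lower in WT than in EV with TGF, among them PFKP at -0.23 (adjusted p = 0.0345), which was at 0.01 and not called before. With the prior undone that count was 2. Centring also ended the calls of TPI1 and SLC16A3 against WT without TGF, SLC16A1, P4HA1 and HIF1A against WT with TGF, and CA12 and BNIP3 in KGN, the changes with TGF against WT of TPI1, ENO1, SLC16A1 and HIF1A, and in WT against EV the calls of PGK1 without TGF (adjusted p = 0.111) and of GPI, ALDOA and SLC16A1 with it (adjusted p = 0.355, 0.541 and 0.106). It brought past the threshold the change of SLC16A3 against EV, PFKM as lower against EV with TGF (adjusted p = 0.0312) and in KGN (adjusted p = 0.0171), and in WT against EV LDHB as lower without TGF (adjusted p = 0.0154) and PFKM and VEGFA as lower with it (adjusted p = 0.0157 and 0.012). With no minimum mean the changes with TGF of TPI1 and SLC16A1 against WT and of ADM against EV, and PFKM in WT against EV without TGF, no longer passed (adjusted p = 0.0553, 0.0565, 0.05 and 0.0582). With the prior undone SLC16A3 and VEGFA also changed with TGF against EV (-0.47 and -0.50). PGAM1, VEGFA and P4HA2 then passed against WT without TGF (-0.26, 0.48 and -0.17). In WT against EV so did ENO1 and BNIP3 without TGF (0.18 and 0.41) and LDHB and VEGFA with it (0.18 and -0.27). Undoing the prior as done here enlarges the ratio of every deposited fold change to its standard error. Within a comparison it could hardly end a call, so the calls it added there are no evidence beyond the deposited test. No paired analysis was possible because the tables hold no values per library, and for the same reason leaving out replicates was not run. Centring on protein length was not run, since no protein table was used here. Scarce members carried larger errors, such as a standard error of 0.35 for ADM at a mean of 19.1 beside 0.05 for LDHA at 10883, both against EV with TGF, and the smallest change that could be detected at a low mean was not measured.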
